A study of Homo sapiens with 6 samples.

Results

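The myogenic regulatory factors MyoD (MYOD1), myogenin (MYOG), Myf5 (MYF5) and MRF4 (MYF6) are muscle-specific transcription factors, and the open chromatin around their 4 genes was examined in RH30 rhabdomyosarcoma cells after deletion of MyoD. RH30 is an established cell line of fusion-positive (alveolar) rhabdomyosarcoma, a childhood tumor of the skeletal muscle lineage. The groups were 3 libraries of cells with non-targeting scramble guides (vector) and 3 of cells with guides against MyoD (MyoD-deleted). The study edited genes with CRISPR/Cas9, delivered by transfection or by virus. Which route served these libraries is not given. The sources differ on the line: the labels give plain RH30, while the study names the cells of this assay as plain RH30 in some passages and in others as RH30 that carry an inhibitor of NF-κB (the IκBα super repressor). Whether these libraries came from a clone or a pool is not given in the sources used here. The assay was ATAC-seq, in which Tn5 transposase cuts accessible DNA, and the deposited data were 1 list of peaks per library.

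Overlapping peaks of the 6 lists were merged, and a region was assigned to a gene when the summit of its strongest peak (the one with the highest fold enrichment) lay in the gene body or within 50 kb of it. This gave 33 of 105569 regions. MYOD1 had 16, MYOG had 14, MYF5 had 3 and MYF6 had 2. Both regions of MYF6 were also counted for MYF5, since MYF6 ends 7437 bp before MYF5 starts. The median protein-coding gene had 9 regions under the same rule. Of 20033 protein-coding genes, 84.1% had fewer regions than MYOD1 and 76.1% had fewer than MYOG, whereas 12.2% had fewer than MYF5 and 7.79% had fewer than MYF6.

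The 4 factors are basic helix-loop-helix proteins that pair with E proteins and bind the E box, the letters CANNTG. MyoD and Myf5 commit cells to the muscle lineage, myogenin drives their differentiation, and MRF4 acts both early and in mature fibers. The factors act on each other's genes: MyoD binds and activates MYOG, and MYOD1 is known to be controlled by its promoter, a distal regulatory region and a core enhancer further upstream. MYF5 and MYF6 sit side by side and share a long stretch of regulatory DNA. Tumors of the muscle lineage are diagnosed by their staining for MyoD and myogenin.

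The libraries held between 63140 and 80608 peaks. Spearman's rho of fold enrichment between libraries lay between 0.901 and 0.936 within a group and between 0.797 and 0.857 across groups. The lists hold no read totals, and the smallest background of a library, which scales with its depth, lay between 2.22 and 3.41 fragments. All 7 of the muscle markers examined (MYOD1, MYOG, DES, CHRNA1, FGFR4, CDH15 and MYMK) had a peak within 2 kb of their 5′ end in all 6 libraries. Of 7 markers of other cells, PTPRC, CD3E, PECAM1 and ALB had a peak there in 0 libraries, EPCAM in 5, KRT5 in 4 and CDH5 in the 3 MyoD-deleted libraries, and their part in the results was not tested. In bulk libraries, fewer cells with an open region and less opening per cell cannot be told apart. The labels call the libraries biological replicates but do not say what separates them, so p-values measure the spread between these libraries.

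The guides listed for MYOD1 in the study's reagents are shown because G1 and G2 cut in 1 of the regions compared. They are written 5′ to 3′ with the PAM in capitals, and were matched to GRCh38. Guides G1 and G2 lie on the minus strand at chr11:17719801-17719820 and chr11:17719804-17719823, in coding exon 1. Their cuts fall 233 and 236 bp downstream of the 5′ end of the gene and inside the open region at that end. Guide C2 lies at chr11:17721484-17721503 on the minus strand in coding exon 3, and guide C3 at chr11:17721515-17721534 on the plus strand beyond the coding sequence, both outside any called region. In another assay of RH30, the study knocked out MyoD with the pairs G1 and C2, and G2 and C3. Which guides were used for the libraries compared here is not given.
G1: aggtctacgtcgcggagcggTGG
G2: gtcaggtctacgtcgcggagCGG
C2: gcacctggtatatcgggttgGGG
C3: ggtggccgcccacccgcccgAGG

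The summit sequences of regions on which the comparison turns are given from the plus strand of hg38, 50 bases on each side of the summit, with E boxes in capitals. They are the MYOD1 regions at -5.1 kb and at -19.9 kb, the MYOG regions at the 5′ end, at -3.8 kb, at -30.3 kb and at 20.6 kb, and the region at -4.6 kb of MYF6. Distances run from the 5′ end of the gene to the summit and are negative upstream.
MYOD1 -5.1 kb, chr11:17714397-17714497: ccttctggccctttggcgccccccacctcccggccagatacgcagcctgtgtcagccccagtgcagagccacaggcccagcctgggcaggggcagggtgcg
MYOD1 -19.9 kb, chr11:17699646-17699746: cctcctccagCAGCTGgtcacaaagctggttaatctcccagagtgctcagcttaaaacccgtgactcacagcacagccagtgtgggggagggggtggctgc
MYOG 5′ end, chr1:203086178-203086278: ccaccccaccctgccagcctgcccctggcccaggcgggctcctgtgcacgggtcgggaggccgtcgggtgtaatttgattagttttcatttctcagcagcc
MYOG -3.8 kb, chr1:203089767-203089867: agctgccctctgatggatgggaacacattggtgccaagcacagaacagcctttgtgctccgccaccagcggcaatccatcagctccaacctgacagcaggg
MYOG -30.3 kb, chr1:203116309-203116409: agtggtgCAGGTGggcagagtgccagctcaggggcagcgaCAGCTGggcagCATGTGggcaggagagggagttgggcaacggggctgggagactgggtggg
MYOG 20.6 kb, chr1:203065346-203065446: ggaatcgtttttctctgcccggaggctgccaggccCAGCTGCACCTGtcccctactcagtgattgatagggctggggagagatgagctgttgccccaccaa
MYF6 -4.6 kb, chr12:80702961-80703061: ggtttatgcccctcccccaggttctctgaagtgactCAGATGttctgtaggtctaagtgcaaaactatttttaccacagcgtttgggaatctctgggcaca

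The 250 bases upstream of MYOG, as RefSeq gives them for GRCh38.p14, are shown because the open region at this end was lower after MyoD deletion. They run 5′ to 3′ on the minus strand, and the only E box of the RefSeq window is in capitals, starting at -13 from the start of the gene.
MYOG upstream, chr1:203086013-203086262: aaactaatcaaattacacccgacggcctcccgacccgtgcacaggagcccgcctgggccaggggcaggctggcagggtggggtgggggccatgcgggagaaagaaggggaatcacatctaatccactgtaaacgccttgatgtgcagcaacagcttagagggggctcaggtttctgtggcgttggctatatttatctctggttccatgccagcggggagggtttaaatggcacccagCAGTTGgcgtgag

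The first question was whether open regions appeared or disappeared around these genes. Of the 33 regions, 21 carried a peak in all 6 libraries, 10 of them at MYOD1, 9 at MYOG and 2 at MYF5 and MYF6, beside 45.4% of all regions. The 5′ ends of MYOD1, MYOG and MYF5 were each open in all 6 libraries, the deleted cells included. No region open in all 6 lay within 2 kb of the 5′ end of MYF6. A region was counted as lost when it was called in 3 of 3 vector and 0 of 3 MyoD-deleted libraries, and as gained in the reverse case.

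One region was lost, 1.78% of all regions being lost. It lay 20.6 kb downstream of the MYOG 5′ end at chr1:203065139-203065564, in intron 25 of PPFIA4, which encodes a liprin scaffold protein. The pileup at its summit, the number of fragments over that base, was 51, 52 and 61 in the vector libraries, with fold enrichments over the local background of 3.50, 4.94 and 5.08. No peak was called there in any MyoD-deleted library, which says that the signal was under the caller's threshold and not that it was absent. Its sequence, printed above, holds the E boxes CAGCTG and CACCTG side by side, 15 and 9 bases before the summit.

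One region was gained, 4.56% of all regions being gained. The count was 2 without vector replicate 1 or MyoD-deleted replicate 3, 3 without MyoD-deleted replicate 1, and 2 with a stricter peak threshold. It lay at chr11:17673869-17674630, at -45.4 kb of MYOD1 and outside any gene. Its pileups were 19, 25 and 29 in the MyoD-deleted libraries, with fold enrichments of 5.21, 5.66 and 7.10, and 0 vector libraries had a peak. No E box lay within 100 bp of its summit. The AP-1 letters TGAGTCA started 25 bases before that summit.

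The 10 remaining regions were called in some libraries of either group. At MYOD1 these were the regions at 5.9 kb (5 libraries), at 24.8 kb (4 libraries, all 3 MyoD-deleted ones and vector replicate 1), and at -46.9 kb, 20.9 kb and 38.0 kb (1 library each). At MYOG they were the regions at 37.0 kb (5 libraries) and at 23.4 kb, 38.5 kb and 49.6 kb (2 libraries each, all MyoD-deleted). At MYF5 the region at 47.1 kb, in an intron of the noncoding gene LINC01490, was called in vector replicate 2 and MyoD-deleted replicate 1. The map of calls by library shows 21 shared regions and 12 others, whose fold enrichments lay between 1.91 and 7.10 where they were called.

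**Figure D1:**
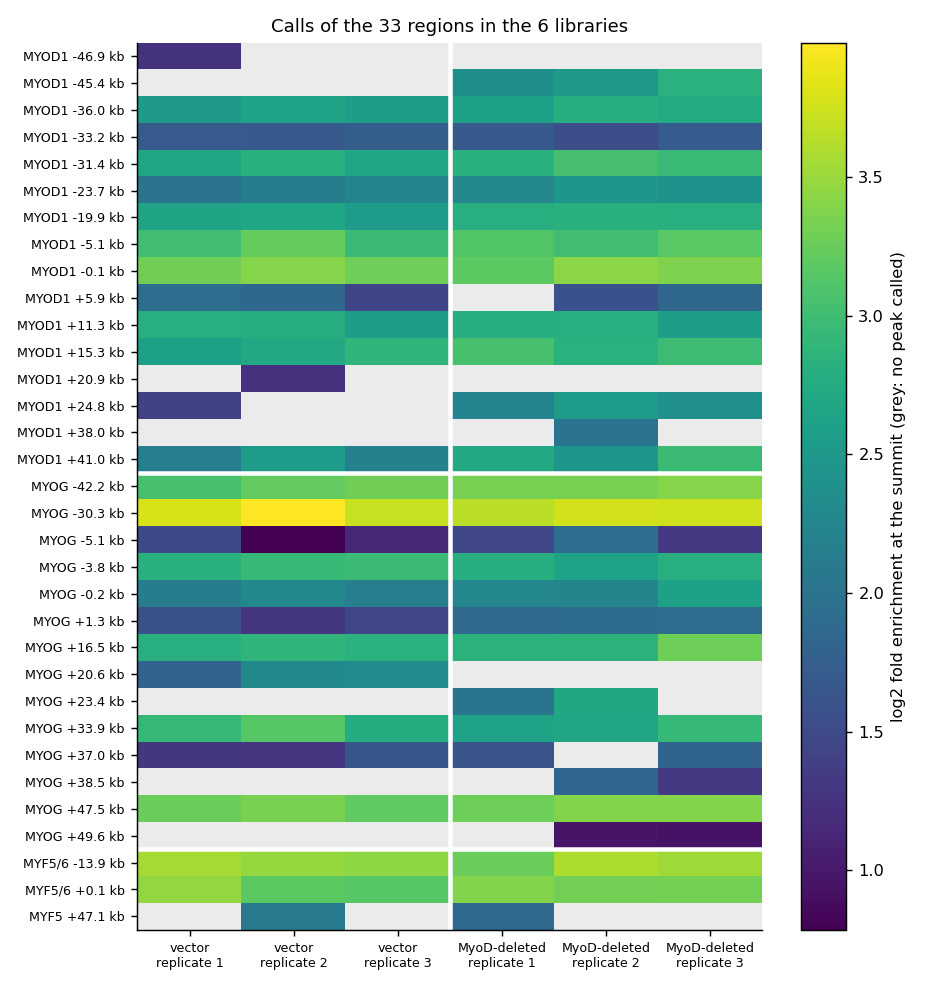
Calls of the 33 regions (rows, by gene and distance of the summit from its 5′ end in kb) in the 3 vector and 3 MyoD-deleted libraries (columns), colored by the log2 fold enrichment at the summit, with grey where no peak was called. Of the 33 regions, 21 have a peak in all 6 libraries, 1 (MYOG +20.6 kb) in the vector libraries alone and 1 (MYOD1 -45.4 kb) in all MyoD-deleted libraries and no vector library.

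The second question was whether the regions that stayed open changed in strength. Summit height was the pileup divided by the smallest background of the library, on the log2 scale and centred on the median of the 47885 regions open in all 6 libraries, so that 0 is the median region. It was compared with limma, with Benjamini-Hochberg adjustment over all 47885 regions. Of the 21 regions of these genes, 12 were lower in MyoD-deleted cells (adjusted p under 0.05) and 0 were higher (0 also at an unadjusted p under 0.05). Among all regions 12.8% were lower and 11.4% were higher. The falls were 7 of 9 regions of MYOG and 5 of 10 of MYOD1, against 0 of 2 at MYF5 and MYF6. The median change was -0.69 at MYOG, -0.36 at MYOD1 and -0.07 at MYF5 and MYF6, beside 0.04 over all regions. In 14 of the 21 regions every MyoD-deleted library lay below every vector library, as in 18.1% of all regions, and in 0 of the 21 did every one lie above, against 19.7%.

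The count depends on the scale. Without centring, the median of the changes over all regions was 0.23 (log2, MyoD-deleted minus vector). On that scale 6 of the 21 regions were lower, 5 of MYOG and 1 of MYOD1, and 0 higher. At an unadjusted p under 0.05, 8 were lower and 0 higher by limma. Among all regions 8.03% were lower and 24.7% higher at an adjusted p under 0.05. The rank of the fold enrichment, which divides by the local background, gave 0 lower and 0 higher regions (limma; 3 lower and 1 higher at an unadjusted p under 0.05), beside 4.67% lower and 4.12% higher among all regions. The smallest adjusted p by rank was 0.0672, at the MYOG region at -30.3 kb, where the mean percentile was 90.9 in vector and 79.0 in MyoD-deleted libraries. By the rank of −log10 p in place of fold enrichment, 6 of the 21 were lower and 0 higher, beside 10.9% lower and 9.03% higher among all regions. The changes in height given below are therefore changes relative to the median region, and not changes relative to the surrounding signal.

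**Figure D2:**
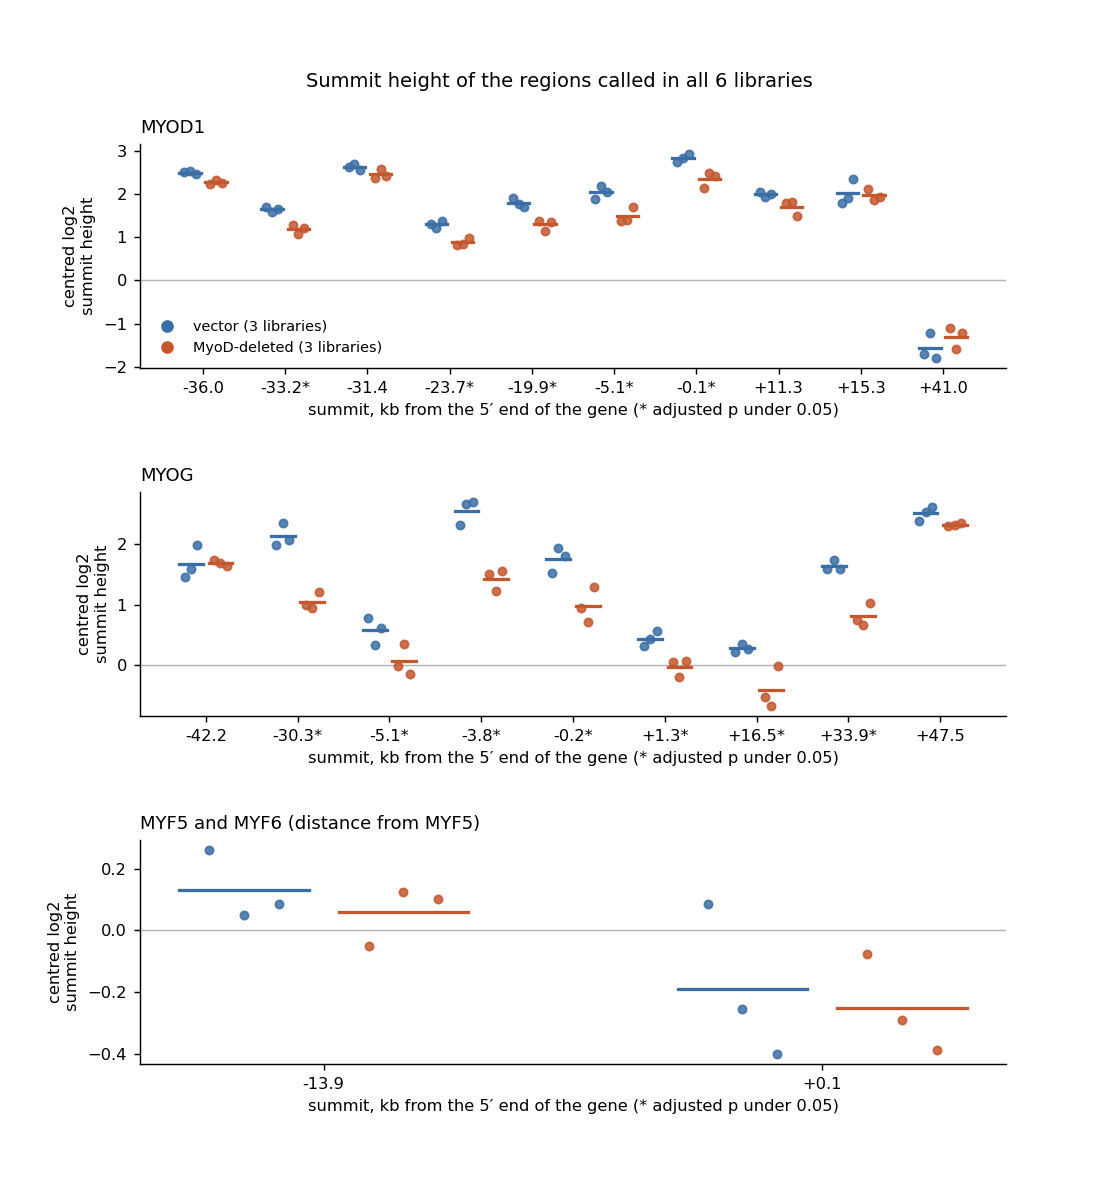
Centred log2 summit height (0 is the median region) of the 21 regions open in all 6 libraries, by gene and by distance of the summit from the 5′ end in kb. Points are libraries, 3 vector (blue) and 3 MyoD-deleted (orange), lines are group means and asterisks mark adjusted p under 0.05 in limma; at MYOG 7 of 9 regions and at MYOD1 5 of 10 carry one, and at MYF5 and MYF6 0 of 2.

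At MYOG, which encodes the factor that drives differentiation, the region at -3.8 kb (chr1:203089297-203090168) had pileups of 404, 355 and 431 in vector and 165, 155 and 200 in MyoD-deleted libraries. Its centred height was 2.56 ± 0.21 (SD, n = 3) in vector and 1.43 ± 0.18 (SD, n = 3) in MyoD-deleted cells. The change was -1.13 ± 0.12 (SE, limma adjusted p = 4.16e-06), which left 0.457 of the vector height, and 2.40% of all regions fell by more. All 3 vector libraries stood above all 3 MyoD-deleted libraries. The region is intergenic, and the nearest annotated 5′ end is that of ADORA1, the gene of an adenosine receptor, from which the summit lay at -837 bp. No E box lay within 100 bp of its summit.

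The region at -30.3 kb (chr1:203115806-203116908), in exon 3 of the noncoding gene ENSG00000234775, had pileups of 322, 288 and 278 in vector and 116, 127 and 157 in MyoD-deleted libraries. Its centred height went from 2.14 ± 0.19 to 1.05 ± 0.14 (SD, n = 3 each). The change was -1.09 ± 0.12 (SE, limma adjusted p = 5.52e-06). It had the highest fold enrichment of the 33 regions, between 12.6 and 15.8 across the libraries, and the groups did not overlap in height. It held 4 E boxes within 100 bp of the summit, of which the CAGCTG starts 10 bases before it.

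The MYOG 5′ end region (chr1:203085843-203086499), whose summit lay at -216 bp, had pileups of 232, 215 and 230 in vector and 111, 108 and 166 in MyoD-deleted libraries. Its height was 1.75 ± 0.22 in vector and 0.98 ± 0.29 in MyoD-deleted cells (SD, n = 3 each). The change was -0.78 ± 0.14 (SE, limma adjusted p = 0.000713), without overlap between the groups. In vector cells 56.1% of 10392 regions at the 5′ ends of protein-coding genes were lower than it, and in MyoD-deleted cells 29.1% were.

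The region at 33.9 kb (chr1:203051550-203052912), in intron 14 of PPFIA4, had pileups of 245, 188 and 200 in vector and 97, 104 and 138 in MyoD-deleted libraries. It changed by -0.84 ± 0.12 (SE, limma adjusted p = 7.79e-05). The region at 16.5 kb (chr1:203068907-203069859), in intron 27 of PPFIA4, had pileups of 94, 71 and 79 against 40, 41 and 67 and changed by -0.69 ± 0.18 (SE, limma adjusted p = 0.00900). In both, every MyoD-deleted library was below every vector library in centred height. Without MyoD-deleted replicate 2 the adjusted p at 16.5 kb was 0.0522 in limma.

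The remaining MYOG regions that fell were smaller. In intron 1 of MYOG, at 1.3 kb (chr1:203084630-203085063), pileups were 100, 75 and 97 in vector and 60, 57 and 71 in MyoD-deleted libraries, and the change was -0.46 ± 0.15 (SE, limma adjusted p = 0.0321). At -5.1 kb (chr1:203090961-203092194) they were 139, 70 and 101 against 57, 84 and 61, and the change was -0.52 ± 0.17 (SE, limma adjusted p = 0.0296). The summit at -5.1 kb lay 443 bp downstream of the 5′ end of ADORA1, the nearest annotated one. The groups overlapped in height at -5.1 kb. Neither passed without centring, with limma adjusted p = 0.22 and 0.148. Each also missed the threshold when any of 4 single libraries was left out, with adjusted p between 0.0603 and 0.134 at 1.3 kb and between 0.0762 and 0.124 at -5.1 kb.

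The outermost regions of the MYOG window that were open in all 6 libraries did not pass. At 47.5 kb (chr1:203038022-203040600), in intron 1 of PPFIA4, pileups were 425, 325 and 408 in vector and 287, 329 and 350 in MyoD-deleted libraries, with a change of -0.19 (95% interval -0.39 to 0.01). At -42.2 kb (chr1:203127338-203128582), in intron 1 of ADORA1, they were 222, 169 and 263 against 193, 214 and 213, with a change of 0.01 (95% interval -0.25 to 0.28). The MYOG regions that fell lay between -30.3 kb and 33.9 kb of its 5′ end.

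At MYOD1, the targeted gene and a determination factor, the 5′ end region (chr11:17719004-17720574) had pileups of 545, 400 and 506 in vector and 256, 373 and 366 in MyoD-deleted libraries. Its summit lay at -97 bp, and the height was 2.84 ± 0.09 in vector and 2.36 ± 0.19 in MyoD-deleted cells (SD, n = 3 each). The change was -0.49 ± 0.10 (SE, limma adjusted p = 0.00210), and the groups did not overlap. Without centring the change was -0.29 (adjusted p = 0.0932). In vector cells 91.3% of the 10392 regions at 5′ ends were lower than it, and in MyoD-deleted cells 77.4% were, so the promoter of the targeted gene remained among the higher ones. The cuts of G1 and G2 lie 330 and 333 bp from its summit. In another assay they were paired with C2 and C3, which cut 1916 and 1961 bp downstream of the 5′ end, outside this region. The stretch between paired cuts holds part of the region. Whether that stretch was lost, and the part of edited sequence in this value, were not tested.

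The MYOD1 region at -5.1 kb (chr11:17713824-17714885) had pileups of 302, 255 and 275 in vector and 151, 175 and 220 in MyoD-deleted libraries. The height went from 2.05 ± 0.14 to 1.49 ± 0.17 (SD, n = 3 each), a change of -0.55 ± 0.11 (SE, limma adjusted p = 0.00170). It was the MYOD1 region that was also lower without centring (-0.36, adjusted p = 0.0454). An E box of the form CAGGTG or CACCTG started 63 bases after its summit.

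The region at -19.9 kb (chr11:17699116-17699997) had pileups of 306, 190 and 215 in vector and 152, 147 and 175 in MyoD-deleted libraries. It changed by -0.49 ± 0.11 (SE, limma adjusted p = 0.00324), and the groups did not overlap. Without centring the adjusted p was 0.0821. It held 2 copies of CAGCTG within 100 bp of the summit. The core enhancer and the distal regulatory region were not matched to these regions by coordinates, since no table of them was used here.

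Further upstream, the region at -23.7 kb (chr11:17694581-17696383), in introns of LINC02729 and ENSG00000254586, had pileups of 201, 131 and 172 against 103, 118 and 134. It changed by -0.42 ± 0.12 (SE, limma adjusted p = 0.0113, and 0.0510 without MyoD-deleted replicate 1). The region at -33.2 kb (chr11:17686047-17686772) had 265, 168 and 208 against 141, 140 and 157 and changed by -0.46 ± 0.11 (SE, limma adjusted p = 0.00444). In both regions all MyoD-deleted libraries were below all vector libraries in centred height. Neither passed without centring (adjusted p = 0.205 and 0.121). The neighbors of the region at -33.2 kb did not pass: the region at -36.0 kb had pileups of 462, 323 and 363 against 273, 330 and 327 (change -0.23, 95% interval -0.41 to -0.04, adjusted p = 0.0767) and that at -31.4 kb had 502, 363 and 390 against 303, 398 and 366 (change -0.16, 95% interval -0.36 to 0.03).

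Downstream of MYOD1 none of the 3 regions open in all 6 libraries passed. They were the region at 11.3 kb (change -0.29, adjusted p = 0.0594), the region at 15.3 kb over the first exon of KCNC1, the gene of a potassium channel (-0.05, adjusted p = 0.838), and a weak region at 41.0 kb in intron 1 of KCNC1 (0.27, adjusted p = 0.454). Pileups at the KCNC1 start were 282, 210 and 337 in vector and 252, 239 and 261 in MyoD-deleted libraries, so the groups overlapped. Those at 41.0 kb lay between 19 and 29 fragments.

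At MYF5 and MYF6, the other determination factor and MRF4, neither of the regions open in all 6 libraries passed. The MYF5 5′ end region (chr12:80716549-80717772), with its summit 127 bp inside the first exon, had pileups of 86, 47 and 50 in vector and 55, 54 and 52 in MyoD-deleted libraries. Its height was -0.19 ± 0.25 and -0.25 ± 0.16 (SD, n = 3 each), a change of -0.06 (95% interval -0.43 to 0.31, limma adjusted p = 0.847). The region at -13.9 kb of MYF5 and -4.6 kb of MYF6 (chr12:80702412-80703735) had pileups of 97, 58 and 70 against 56, 72 and 73. It changed by -0.07 (95% interval -0.39 to 0.24, limma adjusted p = 0.781). The groups overlapped in both. The SE of the change was 0.18 and 0.15, and the intervals reach down to -0.43 and -0.39. Falls of up to those sizes are therefore not excluded.

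In order of height in vector cells, the 5′ ends stood as MYOD1 (2.84), MYOG (1.75) and MYF5 (-0.19), and the order was the same in MyoD-deleted cells (2.36, 0.98 and -0.25). In neither group did the libraries of neighbors in this order overlap. Whether the 3 ends changed by different amounts was tested on the difference of their heights within a library, a comparison chosen after the values were seen. The difference of MYOG and MYF5 changed by -0.71 (exact two-sided permutation p = 0.2, adjusted over 3 pairs 0.4). Those of MYOD1 and MYF5 and of MYOD1 and MYOG changed by -0.42 (exact permutation p = 0.3, adjusted 0.4) and 0.29 (exact permutation p = 0.4, adjusted 0.4). The smallest p this permutation test can give with 3 libraries a group is 0.1, so it could not have passed the threshold, and whether the ends changed by different amounts was not settled by it.

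The local background was lower at many of the same regions. The peak caller estimates it for each summit from the reads around it, so it includes the signal of neighboring regions. Regions that lie close together share much of it, so counts of regions by background are not counts of separate observations. In fragments, the local background of the vector libraries was 48.9, 29.1 and 36.1 at MYOD1 -23.7 kb and 48.0, 28.9 and 35.7 at -19.9 kb. On the log2 scale and over the smallest background of each library, it was lower in 9 of the 21 regions (limma adjusted p under 0.05), 7 of MYOG and 2 of MYOD1, against 9.05% of all regions. These 9 are all among the 12 that were lower in height. Of all regions with lower background, 3363 of 4332 were also lower in height. Background was higher in 0 of the 21 (0 at an unadjusted p under 0.05), against 11.2% of all regions. Without vector replicate 2 the count of regions with lower background was 3.

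At the MYOG 5′ end region the background was 52.2, 43.5 and 50.9 fragments in vector and 22.3, 22.1 and 26.3 in MyoD-deleted libraries, before division by the smallest background of each. The change was -0.79 (adjusted p = 0.0142) at the 5′ end region and -0.87 (adjusted p = 0.0114) at -30.3 kb, the latter the lowest of the 21. At -42.2 kb, where height did not fall, it was 0.03. At MYOD1 it was -0.52 (adjusted p = 0.0138) at -23.7 kb and -0.50 (adjusted p = 0.0137) at -19.9 kb. These 4 regions, 2 of MYOG and 2 of MYOD1, missed the threshold without vector replicate 2, with adjusted p between 0.0503 and 0.0522, and the MYOG 5′ end did so too without vector replicate 3 or MyoD-deleted replicate 1 or 2 (adjusted p between 0.0501 and 0.0546). At the MYOD1 5′ end the change was -0.30 (adjusted p = 0.118), and at MYF5 and MYF6 it was 0.02 and 0.14. Fold enrichment sets the one over the other, and at the MYOG 5′ end it was 4.38, 4.86 and 4.45 in vector and 4.81, 4.72 and 6.11 in MyoD-deleted libraries.

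**Figure D3:**
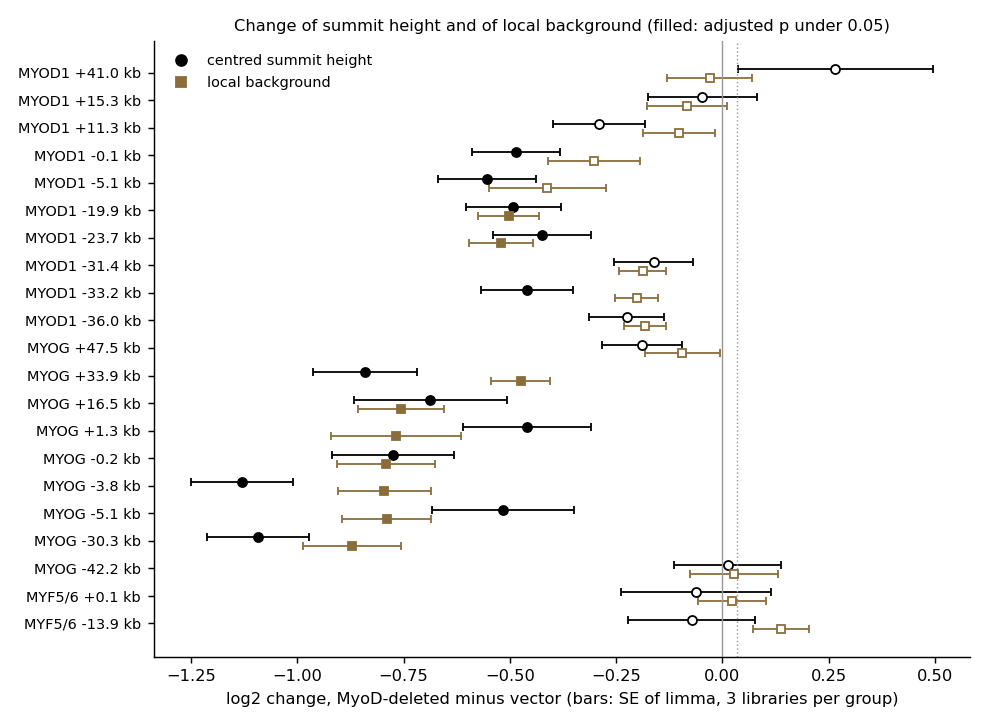
Log2 change (MyoD-deleted minus vector, bars are SE of limma, 3 libraries per group) of the centred summit height (circles) and of the local background (squares) for the 21 regions, filled where adjusted p is under 0.05; the dotted line is the median change in height of all regions (0.04). Height fell in 12 regions and background in 9 of these, with the lowest values at MYOG between -30.3 kb and 33.9 kb and values near 0 at MYF5 and MYF6.

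The E box holds the letters bound by these factors. CANNTG, searched on both strands within 100 bp of the summit, was found in 24 of 33 regions (72.7%) and in 71.4% of all regions. CAGCTG was found in 9 (27.3%), beside 25.1% of all regions. CAGGTG or CACCTG was found in 10 (30.3%), beside 15.9% of all regions. These forms are all counted in CANNTG too. The AP-1 letters TGACTCA or TGAGTCA were found in 5 (15.2%, against 17.9%) and the TEAD letters GGAATG or CATTCC in 3 (9.09%, against 17.3%). A fixed, strict form of the MEF2 core motif was found in 0 (against 2.81%). Other forms of the MEF2 site were not searched, so this count does not say that these regions lack MEF2 sites. The median GC content of the 33 windows was 58.2%, against 50.2% in all regions, and no share was tested.

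The genes whose 5′ end region was most like that of a member were found from the root mean square difference of centred log2 height over the 6 libraries, among 10392 genes. For MYOD1 these were LAMA5 (a laminin chain, 0.136), HHIPL2 (0.144) and NECTIN3 (a cell adhesion protein, 0.146). For MYOG they were GALC (a lysosomal enzyme, 0.118), ATF3 (a stress-induced transcription factor, 0.151) and CXCR4 (a chemokine receptor, 0.178). For MYF5 they were FAT1 (a protocadherin, 0.114), TMEM71 (0.127) and ANXA1 (annexin A1, 0.134). They were picked by the heights of both groups, so a change like that of the member follows from the choice and is no separate result. In height the 3 genes nearest MYOD1 changed by -0.58, -0.66 and -0.30. Those nearest MYOG changed by -0.61, -0.77 and -0.60, and those nearest MYF5 by -0.19, 0.07 and 0.01.

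The other genes of the myogenic program were read from the same fits, as 64 genes by role with 717 regions, 406 of them open in all 6 libraries. By centred height 93 (22.9%) were lower and 33 (8.13%) higher, against 12.8% and 11.4% of all regions. Without centring 50 (12.3%) were lower and 64 (15.8%) higher, against 8.03% and 24.7% of all regions, so the split of these genes turned with the scale, as that of all regions did. By rank 17 (4.19%) were lower and 13 (3.20%) higher, no more than the 4.67% and 4.12% of all regions. Of the 717 regions 17 (2.37%) were gained and 9 (1.26%) lost, beside 4.56% and 1.78% of all regions. The median change was -0.06.

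The 11 upstream factors were the homeobox and PAX proteins and EYA cofactors that act before the family. By centred height 12 of their 56 regions (21.4%) were lower and 2 (3.57%) higher, beside 12.8% and 11.4% of all regions. The largest falls were at PITX3 (-27.6 kb, -1.28 ± 0.17 SE, limma adjusted p = 3.29e-05) and EYA2 (84.6 kb, -1.28 ± 0.28, adjusted p = 0.00241). EYA2 also held the largest rise (252.3 kb, 0.74 ± 0.21, adjusted p = 0.0144), followed by MEOX1 (-39.6 kb, 0.47 ± 0.13, adjusted p = 0.0122). Among 7 partners, the E proteins and MEF2 factors, 9 of 61 regions (14.8%) were lower and 3 (4.92%) higher, beside the same shares of all regions. TCF3, which encodes E proteins that pair with MyoD, held the largest fall (-40.6 kb, -0.98 ± 0.22, adjusted p = 0.00367), followed by MEF2A (-18.7 kb, -0.89 ± 0.20, adjusted p = 0.00312). TCF12 (142.4 kb, 1.03 ± 0.25, adjusted p = 0.00565) and MEF2A (143.5 kb, 0.54 ± 0.17, adjusted p = 0.0274) held the largest rises.

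Among 12 inhibitors, such as the ID proteins, which keep E proteins from the factors, 7 of 66 regions (10.6%) were lower. Another 7 (10.6%) were higher. Neither share exceeded that of all regions, 12.8% lower and 11.4% higher. The largest falls were at HEY1 (-33.0 kb, -1.25 ± 0.19 SE, limma adjusted p = 0.000119) and ID3 (34.4 kb, -1.17 ± 0.12, adjusted p = 3.29e-06). The largest rises were at MSC, a repressor that competes for E boxes (-10.2 kb, 0.73 ± 0.20, adjusted p = 0.0117), and TWIST2 (16.5 kb, 0.63 ± 0.14, adjusted p = 0.00336).

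The 34 targets encode mostly contractile, receptor and fusion proteins of muscle. They also encode metabolic enzymes (CKM and ENO3), cell-cycle inhibitors (CDKN1A and CDKN1C) and an RNA-binding protein (RBM24). By centred height 65 of their 223 regions (29.1%) were lower and 21 (9.42%) higher, beside 12.8% and 11.4% of all regions. Without centring 37 (16.6%) were lower and 35 (15.7%) higher, against 8.03% and 24.7% of all regions. By rank 8 (3.59%) were lower and 11 (4.93%) higher, against 4.67% and 4.12% of all regions. MYH3, embryonic myosin heavy chain, held the largest fall in centred height (32.1 kb, -1.47 ± 0.28 SE, limma adjusted p = 0.000961). TNNT2, cardiac troponin T, came next with a region it shares with TNNI1 (-44.9 kb of TNNT2, -1.44 ± 0.12, adjusted p = 6.03e-07). MYL4, a myosin light chain (39.8 kb, 1.34 ± 0.13, adjusted p = 2.41e-06), and CDKN1C, a cell-cycle inhibitor (-27.0 kb, 1.02 ± 0.21, adjusted p = 0.00145), held the largest rises. The falls of PITX3, EYA2, TCF3, MEF2A, HEY1, ID3, MYH3 and TNNT2 also passed without centring.

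**Figure D4:**
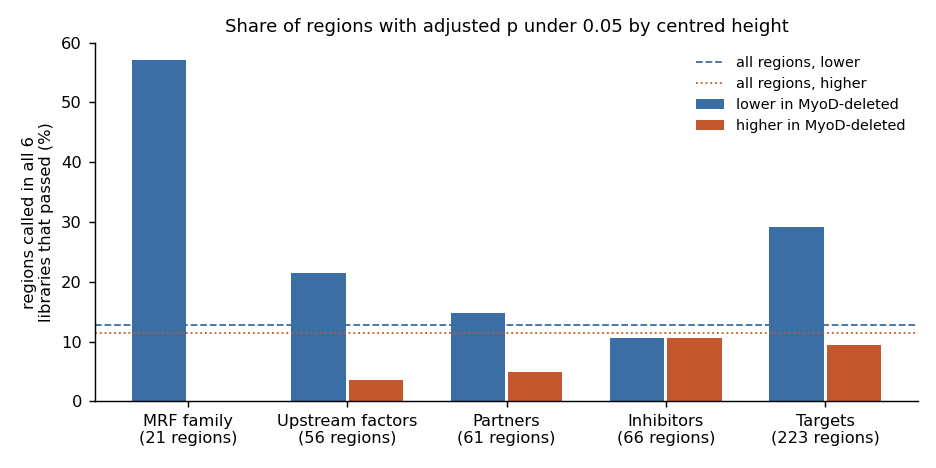
Share (%) of the regions open in all 6 libraries that were lower (blue) or higher (orange) in MyoD-deleted cells by centred height (limma adjusted p under 0.05), for the 4 myogenic regulatory factors (MRF family) and the other myogenic genes by role, with the shares of all regions as lines (12.8% lower, dashed; 11.4% higher, dotted). Without centring the other genes together had 50 lower (12.3%) and 64 higher (15.8%) regions, and the MRF family 6 and 0, against 8.03% lower and 24.7% higher among all regions.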

How the data were processed

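The authors aligned paired-end ATAC-seq reads to hg38 with Rsubread and called peaks per library with MACS2, without pooling. No control sample or peak-calling setting is given in the sources used here. In the deposited lists, the score is a scaled −log10 q, and fold enrichment, as deposited, divides the pileup of the summit by its local background (a ratio). The deposited −log10 p and −log10 q belong to the same summit. None is normalized between libraries. The authors' own test used read counts not analysed here.

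Whole-number pileup and local background were recovered from fold enrichment and −log10 p, within 0.02 for 100% of peaks. One mitochondrial peak per library was left out. Regions called in all 6 libraries (47885) were compared with limma 3.58.1 (lmFit, eBayes with trend) in R 4.3.3 and Python 3.11.15, on the inverse-normal rank of fold enrichment and on centred log2 summit height, without a block, with Benjamini-Hochberg adjustment. The test of local background was added after the data were seen. Scripts were tested on simulated data. Genes came from GENCODE 44, and no peak ended beyond a chromosome of the reference. MYLPF was matched as MYL11 through RefSeq. RefSeq promoters matched MYOG, MYF5 and MYF6. The summit sequence of the MYOD1 5′ end region is not reported here.

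The members and gene lists were chosen with earlier results of these data known. Named genes are the members, the genes with the 2 largest falls and rises per role, the 3 genes nearest each member's 5′ end in height, and genes in which a member region lies. Alternatives were the peak threshold (−log10 q of at least 5), equal peak numbers, overlap of 50%, summit windows of 100 bp, windows of 10 and 100 kb, other centring, a replicate block, and each library left out. Depth is unknown, and no counting error is given.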

Additional observations from a re-analysis of the deposited data

How the results depend on the processing

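The labels do not say what same-numbered libraries share, and the values do not settle it. The deviations of same-numbered libraries from their group means correlated at -0.0401, -0.203 and 0.0925 over regions. Those of differently numbered libraries correlated at -0.232 to 0.260. With a replicate block, 12 of the 21 regions of the 4 genes were lower and 0 higher by height and 0 either way by rank, so it changed no call of height or rank among these 21. The other myogenic genes went from 93 lower and 33 higher to 89 and 28. The regions with lower local background went from 9 to 3, and those that missed the threshold included the MYOG 5′ end (adjusted p = 0.0532), MYOG -30.3 kb (0.0507), MYOD1 -23.7 kb (0.0625) and MYOD1 -19.9 kb (0.0600).

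Gained regions numbered 2 with the stricter threshold, with equal numbers of peaks, with summit windows and with 50% overlap, and 0 within 10 kb. Lost regions numbered 0 within 10 kb and 2 within 100 kb. By the rank of −log10 p, 6 regions were lower. Within 100 kb, 1 was lower and 1 higher by rank, and 1 higher by height. By height 6 were lower without centring, and 6 of 9 within 10 kb. Local background centred on the median region was lower in 14 of 21. The share of all regions on that scale was not taken, so this count cannot be set beside it. The E box CAGCTG occurred in 22 of 33 regions searched whole (66.7%), beside 47.8% of all regions and 60.1% of those open in all 6 libraries. The other myogenic genes had 50 lower (12.3%) and 64 higher (15.8%) regions without centring, against 8.03% and 24.7% of all regions. The causes were not tested, except that a window holds fewer or more regions by construction.

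Leaving out 1 library gave 1 to 3 gained regions (2 without vector replicate 1 or MyoD-deleted replicate 3, 3 without MyoD-deleted replicate 1) and 1 lost. It gave 9 to 12 lower and 0 higher by height, 0 by rank, and 3 to 9 with lower and 0 with higher background. The other myogenic genes had 66 to 104 lower and 19 to 36 higher, 19 without vector replicate 2 or MyoD-deleted replicate 2.

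Changes near 0 changed sign. Without centring, height changed by 0.0026 at MYOG 47.5 kb, 0.030 at MYOD1 -31.4 kb, 0.14 at MYOD1 15.3 kb, 0.12 at MYF5 -13.9 kb and 0.13 at the MYF5 5′ end. Centred on regions near 5′ ends, height at MYOG -42.2 kb changed by -0.013, and background, centred, by -0.015 there and by -0.020 at the MYF5 5′ end. With 1 library left out, height changed by -0.10 to 0.17 at MYOG -42.2 kb, -0.16 to 0.12 at MYOD1 15.3 kb and -0.17 to 0.076 at the MYF5 5′ end, and background by -0.032 to 0.13 at MYOG -42.2 kb and -0.042 to 0.069 at the MYF5 5′ end. Of these, MYOG 47.5 kb passed without vector replicate 1 (-0.25, adjusted p = 0.0426), and the others passed in no setting. MYOD1 11.3 kb passed when centred on regions near 5′ ends (-0.32, adjusted p = 0.0447). Counting error was not estimated.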
